A study of Mus musculus with 8 samples.

Results

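A set of 10 genes that endothelial cells use to catch and guide leukocytes was followed in lymphatic endothelial cells of inflamed and untreated mouse ear skin: the selectins Selp and Sele, the integrin ligands Icam1, Icam2 and Vcam1, the junctional molecules Pecam1 and Cd99l2, and the immunoglobulin-type molecules Alcam, Mcam and L1cam. They were chosen by name, as the probe sets whose platform annotation gave exactly 1 gene and that gene was one of the 10. This gave 22 of the 34945 probe sets naming 1 gene, and 10 of 18193 genes. All samples were cells sorted by flow cytometry as CD31-positive, podoplanin-positive and CD45-negative from ears of female FVB mice, with 3 mice pooled per sample and 4 samples per group. The inflamed group had contact hypersensitivity: mice were sensitised with 2% oxazolone on abdomen and paws, challenged 5 days later with 1% oxazolone at 10 µl per ear side, and killed 24 hours after the challenge. The untreated group is labelled as healthy mice, and the labels describe neither a vehicle nor a sensitisation for it. Each inflamed sample had an untreated partner, processed on 1 day with it, and the mice of pairs 1 to 4 were 9, 8, 8 and 10 weeks old.

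As background, leukocytes leave blood in steps. Selectins on the vessel wall hold rolling cells, integrin ligands of the ICAM and VCAM type arrest them, and junctional molecules such as CD31 and the CD99 family let them pass between endothelial cells. Lymphatic vessels carry dendritic cells and T cells out of the skin, and in that route ICAM-1 and VCAM-1 are known to bind integrins of leukocytes that enter the vessel, while L1CAM has been linked to the passage of dendritic cells through endothelium.

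Levels are MAS5 signals, the authors' intensity per probe set, given on the log2 scale unless a linear signal is named. A change is the mean inflamed minus untreated difference within the 4 pairs. Each array had a background ceiling, the 95th percentile of its bacterial control probe sets, which lay between 2.53 and 3.31. The mean linear signal of an array lay between 126.2 and 160.4, and the number of arrays limits the precision. The Gapdh control probe sets differed between 3′ and 5′ ends by 2.58 to 3.30 on inflamed and 3.40 to 4.16 on untreated arrays, without overlap, while those of Actb differed by -0.07 and -0.08 on average; array medians were also lower in all inflamed samples, at 3.27 to 3.44 against 3.56 to 3.74 in untreated samples. The part of these array differences in the results below was not tested. All 13 measured lymphatic endothelial markers, Prox1, Lyve1, Flt4 and Pdpn among them, were above the ceiling on all 8 arrays. Pdpn encodes the sort marker podoplanin, so its level is tied to the gate. A level above the ceiling is not particular to these markers, since 53.5% to 62.6% of non-control probe sets lay above it on each array. The mean level of the lymphatic endothelial markers was lower in inflamed samples, at 9.26 to 10.20 against 10.48 to 11.15 in untreated samples. Neutrophil markers averaged 3.97 to 4.60 in inflamed samples and 1.37 to 2.51 in untreated samples, fibroblast markers 7.51 to 9.93 and 6.54 to 9.01, and keratinocyte markers 2.54 to 4.54 and 5.82 to 6.85. Each of these 4 lists differed in one direction in all 4 pairs (exact two-sided sign-flip permutation test, p = 0.275 adjusted over 11 lists; the unadjusted p was the smallest that 4 pairs can give). Pan-endothelial markers were likewise lower in all 4 pairs, at 8.52 in inflamed and 9.13 in untreated samples (same test, adjusted p = 0.275). Of 11 neutrophil markers on the array, 3 (S100a8, S100a9 and Il1b) were above the ceiling on all inflamed arrays and 3 (Elane, Ltf and Ngp) on none. Monocyte and macrophage markers averaged 3.97 to 5.26 in inflamed and 2.79 to 4.08 in untreated samples and were higher in 3 of 4 pairs, with 5 of 13 above the ceiling on all inflamed and 2 on all untreated arrays. Ptprc, which encodes the sort marker CD45, was above the ceiling on 3 of 4 inflamed and 0 of 4 untreated arrays. In such bulk samples, a different share of cells of a type and a different amount of RNA per cell cannot be told apart.

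**Figure D1:**
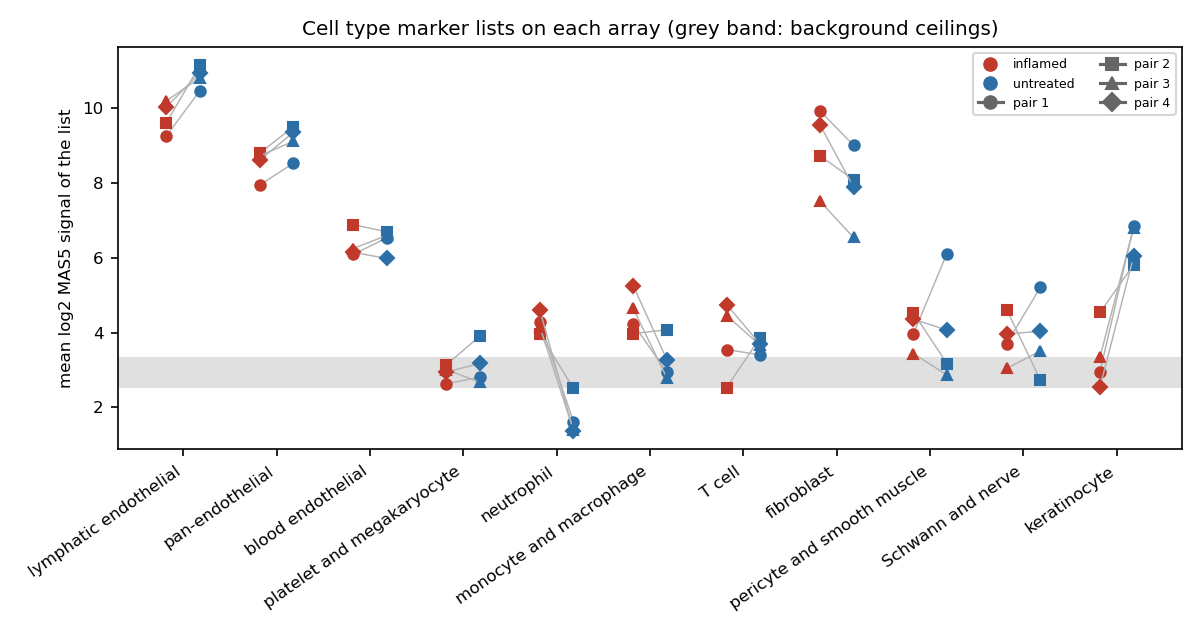
Mean log2 MAS5 signal of each cell type marker list on each array, with inflamed samples in red, untreated samples in blue, a symbol per pair and lines joining pairs; the grey band spans the background ceilings of the 8 arrays, 2.53 to 3.31. Lymphatic endothelial markers have the highest list mean in both groups, at 9.78 in inflamed and 10.85 in untreated samples, although on inflamed array 1 the fibroblast markers lie above them (9.93 against 9.26); neutrophil markers lie above the band in inflamed samples only, and keratinocyte markers lie lower in all 4 inflamed samples.

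Of the 10 genes, 9 passed the filter on dim probe sets (a mean level of at least 3.30 over all arrays) and were tested among 10843 genes with limma. Selp and Icam1 rose and Cd99l2 fell at an adjusted p under 0.05, and the other 6 tested genes did not pass. Over all genes tested, 3.91% were higher and 3.02% lower by the same rule. Selp and Icam1 were also the members whose 4 inflamed values all lay above the 4 untreated values, as did 6.3% of all genes, and Cd99l2 was the member whose inflamed values all lay below, as did 6.84%. The mean was higher in inflamed samples for 6 of the 10 genes, including Sele, and the median change of the 9 tested genes was 0.13, beside -0.09 over all genes tested. The tested members ran in order of change as Selp (6.62), Icam2 (1.57), Icam1 (1.53), Vcam1 (1.49), Alcam (0.13), Pecam1 (-0.72), L1cam (-1.18), Mcam (-2.13) and Cd99l2 (-3.00). Only the 95% interval of Selp lay clear of that of its neighbour. From Icam2 to Cd99l2 the intervals of all neighbours overlapped, so the order of neighbours cannot be read. Genes further apart in the order could still be separate, as the intervals of Icam1 (1.11 to 1.96) and Cd99l2 (-4.49 to -1.51) were. Sele, which was not tested, has no place in this order because its value depends on how signals near background are treated.

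**Figure D2:**
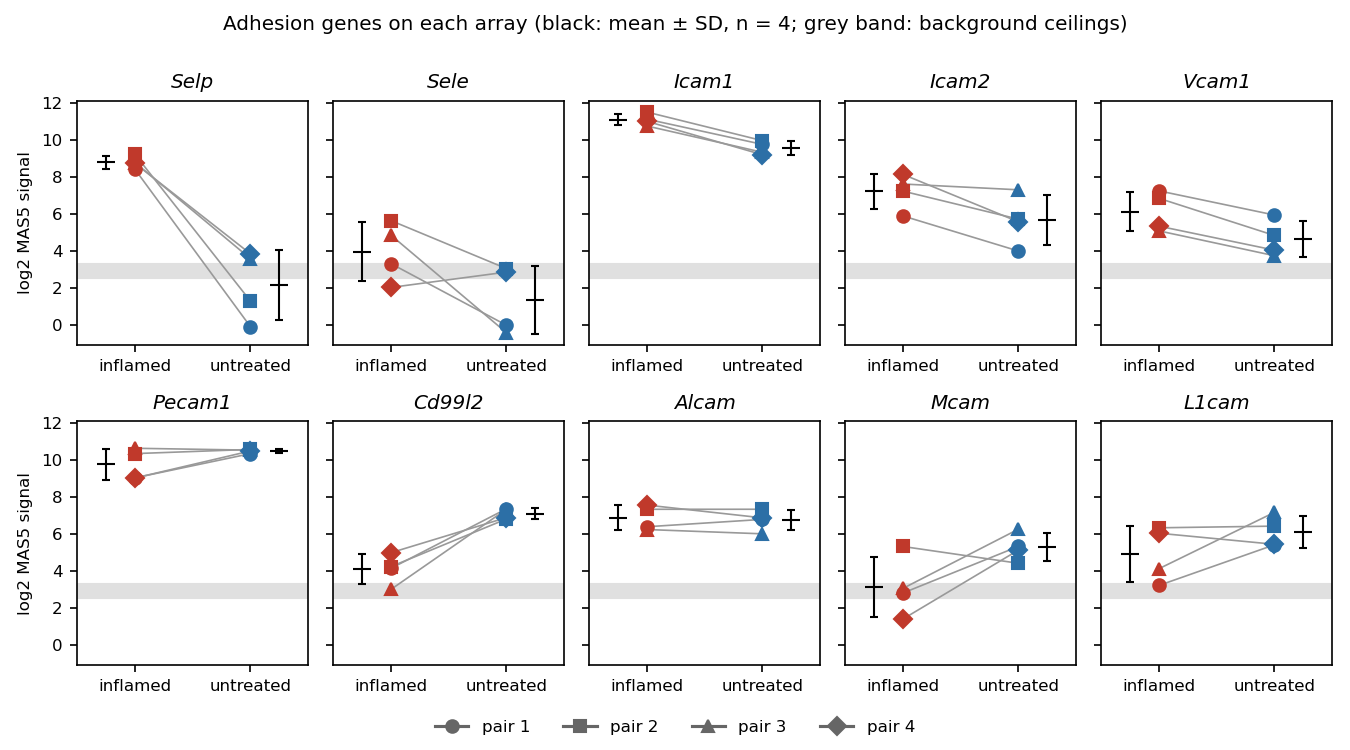
Log2 MAS5 signal of the brightest probe set of each of the 10 genes, with inflamed samples in red on the left, untreated samples in blue on the right, a symbol per pair, black marks for the mean ± SD (n = 4) and the range of background ceilings in grey. The groups do not overlap for Selp, Icam1 and Cd99l2, and they overlap for the other genes.

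P-selectin, encoded by Selp, is stored in granules of endothelial cells and platelets and brought to the surface on activation, where it binds PSGL-1 on rolling leukocytes. It showed the widest difference of the 10 genes. The linear signal of its brightest probe set, 1420558_at, was 342.2, 598, 441.6 and 428 in inflamed samples 1 to 4, against 0.948, 2.48, 12.1 and 14.5 in untreated samples 1 to 4. All 4 inflamed samples were far above the ceiling, whereas 2 of 4 untreated samples lay above it, and the groups were wide apart. On the log2 scale Selp averaged 8.79 ± 0.33 in inflamed and 2.17 ± 1.89 in untreated samples (n = 4 each, SD), a change of 6.62 ± 0.80 (SE; adjusted p = 0.00173; 95% interval 4.82 to 8.42; higher in 4 of 4 pairs). Selp passed the filter through its inflamed arrays, since its untreated mean lay under 3.30. Without any filter its adjusted p was 0.000969. Because the untreated values are partly background, the size depends on how low signals are treated: it was 5.58 with values floored at the ceilings and 4.34 with 16 added to each signal, and it passed in both.

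The other Selp probe sets read the same transcript in the same samples and are no further replicates. Probe set 1449906_at averaged 8.31 in inflamed and 1.53 in untreated samples, and 1440173_x_at, whose suffix marks probes that can match other transcripts, averaged 8.37 and 0.88. Their changes were 6.78 and 7.49, with adjusted p = 0.000902 and 0.00102 in the limma fit over probe sets. Both passed the filter through their inflamed arrays, with 1 of 4 untreated samples above the ceiling; without any filter their adjusted p was 0.000665 and 0.000687 among 34945 probe sets, and floored at the ceilings they differed by 5.24 and 5.35. In neither did any inflamed value fall as low as an untreated one. Of 10 platelet and megakaryocyte markers on the array, 2 were above the ceiling on all inflamed and 2 on all untreated arrays. The list averaged 2.63 to 3.14 in inflamed against 2.67 to 3.91 in untreated samples and was lower in 3 of 4 pairs. Gp9 was above the ceiling on no array and Ppbp on 0 inflamed and 1 untreated arrays, while Pf4 averaged 5.97 in inflamed and 5.12 in untreated samples. Itga2b, which encodes CD41, averaged 4.43 in inflamed and 2.17 in untreated samples and was above the ceiling on 3 inflamed and 1 untreated arrays. Other markers of this list went the other way. Clec1b averaged 2.33 in inflamed and 3.78 in untreated samples (above the ceiling on 1 and 4 arrays), and Gp6 averaged 1.10 and 3.25 (0 and 2 arrays). Blood endothelial markers, the other cells known for P-selectin, averaged 6.09 to 6.89 in inflamed and 5.99 to 6.70 in untreated samples, and were higher in 2 of 4 pairs. Single members of that list differed in both directions: Car4 averaged 8.23 in inflamed and 2.54 in untreated samples (above the ceiling on 4 and 1 arrays), and Sox17 averaged 1.65 in inflamed and 5.15 in untreated samples (1 and 3 arrays). The venular marker Ackr1 was above the ceiling on 1 inflamed and 3 untreated arrays. The part of platelets and blood endothelial cells in the Selp result was not tested.

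E-selectin, encoded by Sele, is made by endothelium after cytokine stimulation and slows rolling cells further. Its probe set, 1421712_at, was dim in both groups and did not pass the filter, with a mean level of 2.67. The linear signal was 10, 50.1, 29 and 4.1 in inflamed samples 1 to 4, against 0.998, 8.33, 0.755 and 7.28 in untreated samples 1 to 4. It was above the ceiling in 3 of 4 inflamed samples and 1 of 4 untreated samples, and the groups overlapped because inflamed sample 4 lay below untreated samples 2 and 4. With values floored at the ceilings it averaged 4.21 in inflamed and 3.09 in untreated samples, a difference of 1.12. When all 18193 genes were fitted without a filter, Sele differed by 2.59 ± 1.03 (SE) and did not pass (adjusted p = 0.232; higher in 3 of 4 pairs).

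ICAM-1, encoded by Icam1, is the ligand of the leukocyte integrins LFA-1 and Mac-1. It was bright in both groups, on 1 probe set, 1424067_at. The level was 11.13, 11.51, 10.76 and 11.01 in inflamed samples 1 to 4, against 9.77, 9.97, 9.34 and 9.21 in untreated samples 1 to 4. Every inflamed sample was above every untreated sample, and the differences within pairs were close to one another, at 1.36, 1.54, 1.42 and 1.80. The means were 11.10 ± 0.31 in inflamed and 9.57 ± 0.36 in untreated samples (n = 4 each, SD), a 2.89-fold rise of 1.53 ± 0.19 (SE; adjusted p = 0.00197; 95% interval 1.11 to 1.96; higher in 4 of 4 pairs). This call ended without limma's intensity trend (adjusted p = 0.107). Fibroblasts can also carry ICAM-1 and VCAM-1; the 10 fibroblast markers averaged 8.94 in inflamed and 7.89 in untreated samples and were higher in 4 of 4 pairs, 8 of them above the ceiling on all inflamed and 7 on all untreated arrays, with none below it throughout either group. Their part in the results for these genes was not tested.

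ICAM-2, encoded by Icam2, is a further LFA-1 ligand, known as constitutively present on endothelium. On its probe set, 1448862_at, the level was 5.90, 7.24, 7.62 and 8.14 in inflamed samples 1 to 4, against 4.00, 5.73, 7.31 and 5.58 in untreated samples 1 to 4. It was higher in 4 of 4 pairs, but the groups overlapped, since untreated sample 3 stood above inflamed samples 1 and 2. Icam2 differed by 1.57 ± 0.58 (SE) and did not pass (adjusted p = 0.149; 95% interval 0.27 to 2.87). Its difference was as large as that of Icam1 with a wider spread, as the within-pair values of 1.90, 1.51, 0.31 and 2.56 show.

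VCAM-1, encoded by Vcam1, binds the integrin VLA-4 of lymphocytes and monocytes, and its 3 probe sets disagreed. The brightest, 1415989_at, had levels of 7.25, 6.85, 5.09 and 5.35 in inflamed samples 1 to 4, against 5.95, 4.85, 3.75 and 4.05 in untreated samples 1 to 4. It was higher by 1.29 to 2.00 within each of the 4 pairs although the groups overlapped, and it did not pass (change 1.49 ± 0.62, SE; adjusted p = 0.199). Probe set 1448162_at had 8.24, 6.34, 5.99 and 7.42 in inflamed samples 1 to 4, against 2.67, 3.77, 0.17 and 5.29 in untreated samples 1 to 4. Here the groups did not overlap, and it passed in the fit over 19626 probe sets (change 4.03 ± 0.86, SE; adjusted p = 0.0242; higher in 4 of 4 pairs), with 2 of 4 untreated samples above the ceiling and an untreated mean of 2.97, under the filter. In that fit 3.13% of probe sets were higher and 2.59% lower, and of the members' 17 probe sets in it 5 were higher (those of Selp, that of Icam1 and this one) and 1 was lower. The dimmest, 1451314_a_at, did not pass the filter and averaged 3.03 in inflamed and 2.87 in untreated samples. Probe set 1448162_at passed the filter through its inflamed arrays. Without any filter its adjusted p was 0.0295 among 34945 probe sets, and floored at the ceilings it differed by 3.23. With the mean of the 2 probe sets that passed the filter, 1448162_at being 1 of them, Vcam1 differed by 2.76 (adjusted p = 0.0221).

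**Figure D3:**
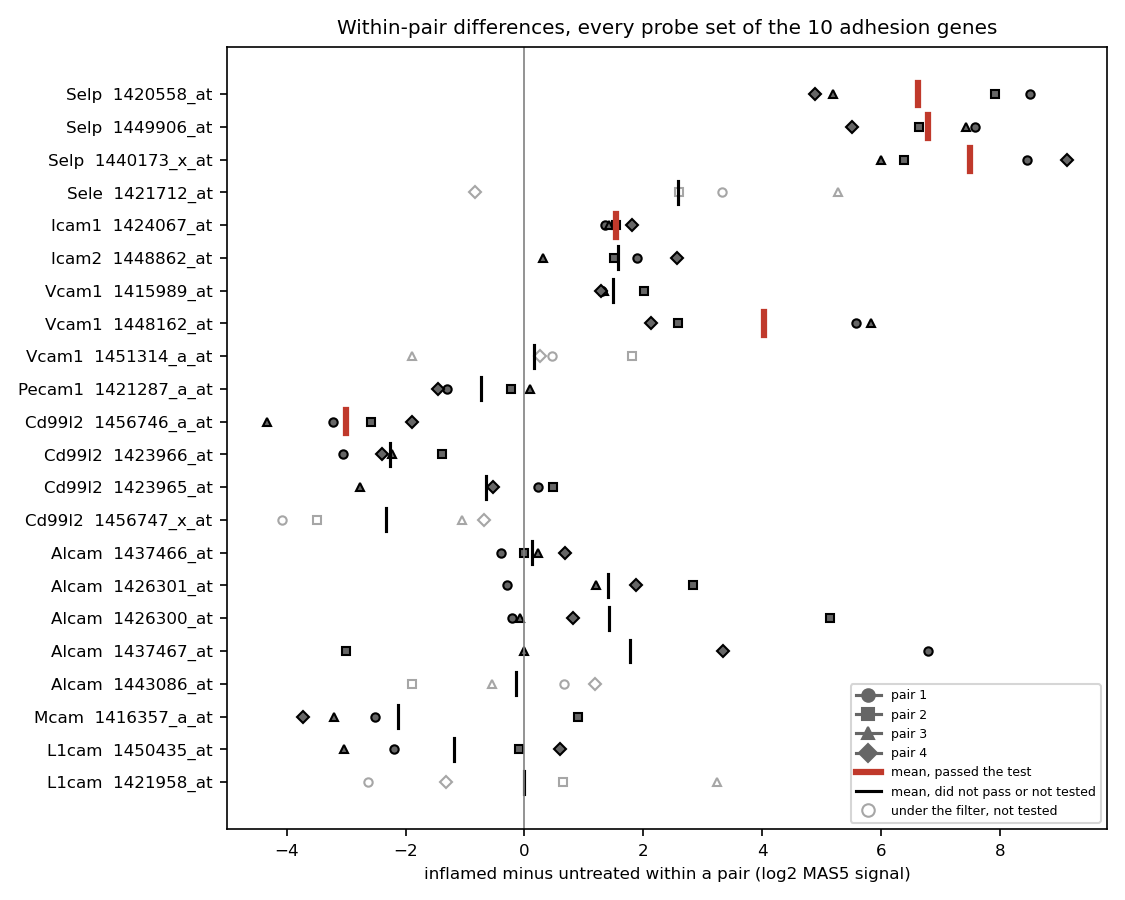
Inflamed minus untreated difference in log2 MAS5 signal within each of the 4 pairs (symbols) and their mean (vertical bars, red where the adjusted p was under 0.05) for all 22 probe sets; open grey symbols mark the 5 probe sets under the filter. The 3 Selp probe sets lie together at 6.62 to 7.49, while the probe sets of Vcam1, Cd99l2 and Alcam spread.

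The letters upstream of the called genes were read to show what their promoters hold. RefSeq's table for GRCm38.p6 gave windows for 7 of the 10 genes, and the 250 bases before the annotated start were searched on both strands for GGNNNTTCC, the letters of an NF-kB site (GGAANNNCC on the other strand), for TTCNNNGAA, those of a STAT site, and for TGANTCA, those of an AP-1 site. Sele, Selp and Icam1 held the first, which 15.7% of all 32851 windows held; Sele and Icam1 held the second (7.02% of windows) and Sele and Selp the third (6.75%). The windows of Mcam, Alcam, Cd99l2 and L1cam held none of these letters. Such a match is a description of the sequence and no evidence of binding. The windows of Selp and Sele lie at chr1:164115014-164115263 and chr1:164047984-164048233, that of Icam1 at chr9:21015690-21015939, all on the plus strand, and that of Cd99l2 at chrX:71492850-71493099 on the minus strand. They are given 5′ to 3′ for the called genes and the second selectin, with matches in capitals. In Sele the first and second matches overlap.
Selp: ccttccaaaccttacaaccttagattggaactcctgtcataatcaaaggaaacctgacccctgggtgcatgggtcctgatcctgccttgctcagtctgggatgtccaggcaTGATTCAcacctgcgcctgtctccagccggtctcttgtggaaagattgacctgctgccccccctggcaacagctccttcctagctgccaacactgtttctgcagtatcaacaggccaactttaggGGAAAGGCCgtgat
Sele: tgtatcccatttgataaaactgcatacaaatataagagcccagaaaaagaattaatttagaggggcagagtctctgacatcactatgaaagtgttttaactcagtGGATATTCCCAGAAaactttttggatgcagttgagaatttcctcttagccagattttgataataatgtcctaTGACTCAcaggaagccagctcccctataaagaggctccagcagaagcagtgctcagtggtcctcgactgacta
Icam1: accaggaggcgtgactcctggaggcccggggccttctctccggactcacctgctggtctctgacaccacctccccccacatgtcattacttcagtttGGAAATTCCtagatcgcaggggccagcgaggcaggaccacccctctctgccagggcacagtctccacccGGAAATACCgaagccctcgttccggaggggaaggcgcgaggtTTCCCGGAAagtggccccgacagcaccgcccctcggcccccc
Cd99l2: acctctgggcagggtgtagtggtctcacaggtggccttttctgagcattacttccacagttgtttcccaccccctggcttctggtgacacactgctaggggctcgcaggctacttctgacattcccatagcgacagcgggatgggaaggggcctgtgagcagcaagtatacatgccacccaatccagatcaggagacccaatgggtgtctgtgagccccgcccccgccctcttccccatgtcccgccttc

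In Icam1 the NF-kB letters read GGAAATTCC, starting 153 bases before the start, and GGAAATACC, starting 84 bases before it. In Sele they read GGATATTCC at 145 bases before the start, and in Selp GGAAAGGCC at 14 bases before it. The window of Cd99l2 is shown because this gene was called. It held no match to any of the 3 motifs, like those of Mcam, Alcam and L1cam. Icam2, Vcam1 and Pecam1 had no window. The part of these letters in the changes was not tested.

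CD99L2, encoded by Cd99l2, is a relative of CD99 at endothelial junctions that takes part in the late step of leukocyte passage through blood vessel walls in mice. On its brightest probe set, 1456746_a_at, the level was 4.16, 4.25, 3.02 and 5.01 in inflamed samples 1 to 4, against 7.38, 6.83, 7.35 and 6.90 in untreated samples 1 to 4. Every inflamed sample was below every untreated sample, and all 8 were above the ceiling. The means were 4.11 ± 0.82 in inflamed and 7.11 ± 0.29 in untreated samples (n = 4 each, SD), a change of -3.00 ± 0.66 (SE; adjusted p = 0.0278; 95% interval -4.49 to -1.51; lower in 4 of 4 pairs). Probe set 1423966_at was also lower in all 4 pairs, at 3.04, 5.12, 3.83 and 4.97 in inflamed samples 1 to 4, against 6.09, 6.51, 6.06 and 7.36 in untreated samples 1 to 4, without overlap, but its change of -2.27 did not pass (adjusted p = 0.079). Probe set 1423965_at, in contrast, differed by -0.65 and was lower in 2 of 4 pairs (adjusted p = 0.70). The dim 1456747_x_at was untested. It was above the ceiling in 0 of 4 inflamed and 3 of 4 untreated samples, and the groups overlapped. Floored at the ceilings it averaged 3.02 in inflamed and 3.66 in untreated samples. The call of Cd99l2 ended without the intensity trend, with the mean of its 3 probe sets, and without pair 1, 2 or 3 (adjusted p = 0.102, 0.0771 and 0.114).

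CD31, encoded by Pecam1, forms homophilic contacts between endothelial cells and with leukocytes. The cells were sorted on this protein, so its level is tied to the gate and is no finding about the groups. On its probe set, 1421287_a_at, it was 9.05, 10.36, 10.65 and 9.04 in inflamed samples 1 to 4, against 10.36, 10.59, 10.55 and 10.50 in untreated samples 1 to 4. The untreated samples lay within a narrow range, and inflamed samples 1 and 4 lay lower by 1.31 and 1.46 than their partners while pairs 2 and 3 differed by -0.23 and 0.10. Pecam1 differed by -0.72 ± 0.29 (SE) and did not pass (adjusted p = 0.188). The 12 pan-endothelial markers, a list without Pecam1, averaged 8.52 in inflamed and 9.13 in untreated samples and were lower in 4 of 4 pairs.

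ALCAM, encoded by Alcam, binds itself and the T cell receptor CD6. Its brightest probe set, 1437466_at, had 6.41, 7.35, 6.26 and 7.58 in inflamed samples 1 to 4, against 6.81, 7.35, 6.03 and 6.89 in untreated samples 1 to 4. The groups overlapped throughout, with a change of 0.13 ± 0.49 (SE; adjusted p = 0.918) and a 95% interval of -0.98 to 1.24; without pair 4 the sign turned (-0.0557; adjusted p = 0.979). The other 3 Alcam probe sets that passed the filter differed by 1.40, 1.42 and 1.78, with adjusted p between 0.285 and 0.528. In 1437467_at inflamed sample 1 stood apart at 8.05, with the other inflamed samples between 3.36 and 3.61. The last, 1443086_at, was at or under the ceiling on all 8 arrays.

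MCAM, encoded by Mcam, is a junctional molecule of endothelium that is also known from pericytes and smooth muscle. Its probe set, 1416357_a_at, had 2.83, 5.34, 3.08 and 1.42 in inflamed samples 1 to 4, against 5.34, 4.44, 6.28 and 5.14 in untreated samples 1 to 4. Inflamed samples 1, 3 and 4 were lower than their partners and inflamed sample 2 was higher, and 2 of 4 inflamed samples were above the ceiling, against 4 of 4 untreated samples. Mcam differed by -2.13 ± 0.92 (SE) and did not pass (adjusted p = 0.213; 95% interval -4.20 to -0.07). The 11 pericyte and smooth muscle markers averaged 3.44 to 4.54 in inflamed and 2.86 to 6.12 in untreated samples; 3 were above the ceiling on all inflamed arrays and 3 on all untreated arrays, and the list was higher in 3 of 4 pairs.

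L1CAM, encoded by L1cam, is an adhesion molecule best known from nerve fibres. Its brighter probe set, 1450435_at, had 3.24, 6.35, 4.14 and 6.06 in inflamed samples 1 to 4, against 5.43, 6.44, 7.18 and 5.46 in untreated samples 1 to 4. Pairs 1 and 3 were lower by 2.19 and 3.04, pairs 2 and 4 differed by -0.09 and 0.60, and L1cam did not pass (change -1.18 ± 0.77, SE; adjusted p = 0.423; 95% interval -2.92 to 0.56). The dimmer probe set, 1421958_at, was above the ceiling on 1 of 4 arrays in each group. The 7 Schwann cell and nerve markers on the array averaged 3.04 to 4.62 in inflamed and 2.73 to 5.21 in untreated samples.

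The genes whose levels over the 8 arrays ran most like each called member were found by the root mean square distance between mean-centred log2 levels, as a description; since they were chosen for this likeness, no test is given. Nearest to Selp were Cd274, the gene of the checkpoint ligand PD-L1, at a distance of 0.74, the MHC class I regulator Nlrc5 at 0.79 and Gm4951 at 0.85. They averaged 10.16, 8.64 and 7.87 in inflamed samples, against 2.77, 2.66 and 1.47 in untreated samples, where all 3 means lay under the filter, as for Selp. Icam1 ran closest to Ldha, a lactate dehydrogenase subunit, at a distance of 0.14, to the small GTPase Arf4 at 0.20 and to the protease Sppl2a at 0.24. They averaged 11.33, 10.45 and 10.13 in inflamed samples, against 9.90, 9.17 and 8.66 in untreated samples. Nearest to Cd99l2 were Ccng2, a cyclin, at 0.41, the mitochondrial dehydrogenase Aldh6a1 at 0.44 and Etl4 at 0.47. They averaged 3.71, 4.83 and 4.86 in inflamed samples, against 6.75, 7.36 and 7.32 in untreated samples.

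Genes around the adhesion steps were taken from 5 lists of 83 genes, of which 80 were on the array and 58 were tested; 7 were higher and 4 lower, beside 3.91% higher and 3.02% lower over all genes tested. Among the partners of rolling cells, 1 of 8 tested genes was higher and 1 lower, with a median change of -0.03. Cd44, the hyaluronan receptor, averaged 7.48 ± 1.38 in inflamed and 4.01 ± 0.40 in untreated samples (n = 4 each, SD) and rose by 3.47 ± 0.73 (SE; adjusted p = 0.0221; higher in 4 of 4 pairs). The Cd44 call was lost without pair 1, 2 or 4 and without the intensity trend (adjusted p = 0.11, 0.0892, 0.0691 and 0.0839). Gcnt1, which builds the branched O-glycans that carry selectin ligands, averaged 4.88 ± 1.09 in inflamed and 8.35 ± 0.27 in untreated samples and fell by 3.46 (adjusted p = 0.00852; lower in 4 of 4 pairs), a call that missed the threshold without the trend (0.0504). Fut4, a fucosyltransferase, differed by 1.69 and Cd24a by -0.35, and neither passed.

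Of 4 tested integrin counter-receptors of these ligands, 0 were higher and 1 was lower (median change -0.24; 1 at an unadjusted p under 0.05). Itga9, an integrin subunit of lymphatic endothelium that binds VCAM-1, averaged 8.82 ± 0.54 in inflamed and 10.25 ± 0.71 in untreated samples (n = 4 each, SD) and fell by 1.43 (adjusted p = 0.0472). That call was lost under median centring (adjusted p = 0.113), without the intensity trend (0.208) and without pair 1, 2 or 4 (0.117, 0.174 and 0.123). Itga9 is also in the lymphatic endothelial marker list, which averaged 9.78 in inflamed and 10.85 in untreated samples and was lower in 4 of 4 pairs. The leukocyte subunits Itgb2 and Itgb7 differed by 0.02 and -0.36, and Itgb1 by -0.12, none of them past the threshold. Of 16 tested molecules of endothelial transmigration, 0 passed in limma in either direction, with 3 at an unadjusted p under 0.05 and a median change of -0.17. Those 3 were Pvr, a ligand of DNAM-1, at 1.65 ± 0.47 (adjusted p = 0.0683), Cd47 at 0.28 ± 0.11 and Cdh5, the VE-cadherin gene, at 0.50 ± 0.20 (SE). Cd200, whose receptor sits on myeloid cells, differed by 0.55 (adjusted p = 0.275).

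Of 10 further adhesion molecules, immunoglobulin-type apart from Epcam, 0 were higher and 1 was lower, with a median change of 0.15. Nrcam, of the same family as L1cam, averaged 6.21 ± 1.32 in inflamed and 8.60 ± 0.33 in untreated samples (n = 4 each, SD) and fell by 2.39 (adjusted p = 0.0438). The Nrcam call was lost under median centring (adjusted p = 0.0625), without the trend (0.143), with the mean of its probe sets (0.088) and without pair 1, 2 or 4 (0.144, 0.141 and 0.13). Thy1, which leukocyte integrins bind on endothelium, differed by -0.65 (adjusted p = 0.0757) and Cadm3 by 2.26, and Epcam by -2.23, none of them past the threshold. Epcam, which is also in the keratinocyte list, was above the ceiling on 2 inflamed and 4 untreated arrays. The last list held 20 tested genes of cytokine receptors, NF-kB subunits and inhibitors, and other transcription factors: 6 were higher and 1 was lower, with a median change of 0.56. It mixes genes that promote NF-kB signalling with genes that restrain it, so these counts give no direction of that signalling. The transcription factor Irf1 rose by 2.83 ± 0.33, the NF-kB inhibitor Tnfaip3 by 3.04 ± 0.37 and Nfkbie, another NF-kB inhibitor, by 2.05 ± 0.34 (SE; adjusted p = 0.0016, 0.00197 and 0.00843). Nfatc1, a transcription factor of lymphatic development, fell by 1.75 (adjusted p = 0.0141), and lost its call without pair 1, 2 or 3 (0.0672, 0.0634 and 0.0813) and without the trend (0.135). Without the trend the calls of Irf1 and Nfkbie were lost too (0.055 and 0.12), and that of Tnfaip3 held (0.0348). The neutrophil markers at 4.25 in inflamed and 1.72 in untreated samples, and the fibroblast markers given above, differed between the same samples, and their part in the results was not tested.

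**Figure D4:**
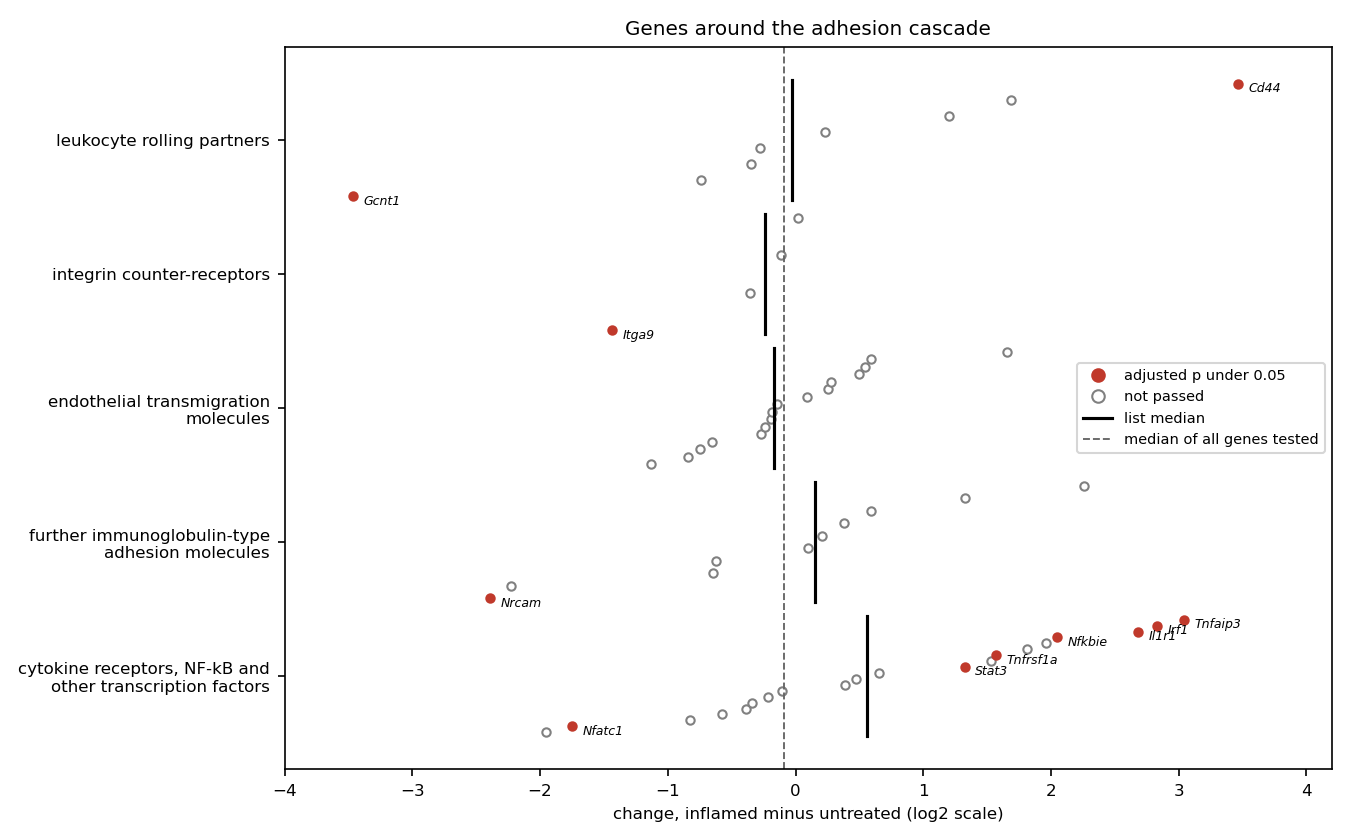
Change of every tested gene of the 5 lists (log2 scale, inflamed minus untreated), with genes at an adjusted p under 0.05 filled and named, the list median as a black bar and the median of all genes tested, -0.09, as a dashed line. Called genes lie to the right of 0 mainly in the list of receptors and transcription factors, with 6 higher and 1 lower.

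The calls of the members were read under 15 other settings. Selp passed in all 14 settings that tested it, with a change between 4.34 and 7.20, and Icam1 passed in 14 of 15, between 1.34 and 1.84. Cd99l2 passed in 9 of 14, between -3.37 and -1.97. Icam2, Pecam1, Alcam, Mcam and L1cam passed in none, and Vcam1 in 1.

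**Figure D5:**
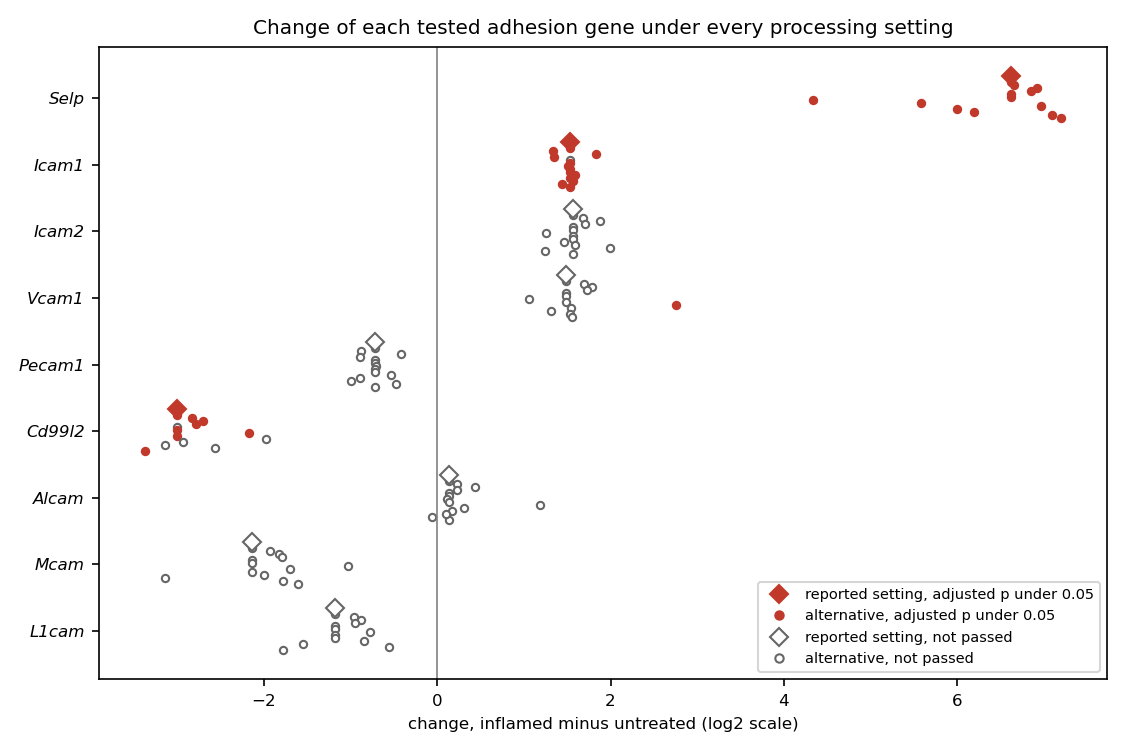
Change (log2 scale, inflamed minus untreated) of the 9 tested genes in the reported setting (diamonds) and in the alternatives (circles), filled red where the adjusted p was under 0.05. Selp stays between 4.34 and 7.20, all filled, while the circles of Cd99l2 are filled in 9 of 14.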

How the data were processed

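RNA of sorted lymphatic endothelial cells was amplified into single-stranded cDNA, labelled with biotin and hybridised to 8 single-colour arrays, per the labels' protocols. The deposited table holds the authors' intensity values, MAS5 signals per the submitters' processing notes, for 45101 probe sets (64 of them controls). Neither the MAS5 version nor its scaling target is given in the sources used here. Array medians differed by at most 0.468 on the log2 scale, with all inflamed medians below all untreated ones, less than the 0.5 that would have called for rescaling. The arrays were left as scaled by the authors, and log2 was taken of the deposited intensities with no pseudocount.

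All 22 members' probe sets matched RefSeq by gene ID. Probe sets with a mean log2 level under the median (3.30) were left out, and the brightest probe set represented each gene, which left 10843 genes. limma 3.58.1 in R 4.3.3 (lmFit, eBayes with an intensity trend, two-sided, Benjamini-Hochberg over all genes, threshold 0.05) was fitted with the pair as a block, since the series' design text states same-day pairs. Adjusted p-values are from this fit unless named. Deviations from group means correlated by 0.16, -0.00, 0.08 and 0.03 within pairs 1 to 4, across genes. On simulated data with 200 of 10843 genes changed, the fit recovered 4% of those changed by 1 on the log2 scale, 40% by 2, 78% by 3 and 86% by 4, and called 4 of 10643 unchanged genes. The data gave 424 higher and 328 lower calls. Recovery after Benjamini-Hochberg adjustment depends on how many genes change, so the simulated shares hold for that setting only. The SE is limma's moderated one. Samples are pools, so p-values rest on the spread of within-pair differences between pools, on 3 residual degrees of freedom. The moderation added a median of 6.27 prior degrees of freedom, drawn from the other genes.

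The members, lists, marker lists, motifs and the background rule were chosen with earlier results of these data known. Named are all members with every probe set, up to 4 genes of smallest p per list, and the 3 genes nearest to each called member; Prox1, Lyve1, Flt4, Pdpn, Ptprc and single platelet, blood endothelial and neutrophil markers were named beside them from the marker lists. SciPy 1.17.1 and pandas 2.3.3 were used for marker lists. Alternatives were the block, scaling, trend, filter, offset, floor, probe set rule and leaving out each pair.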

Additional observations from a re-analysis of the deposited data

Results flagged for a closer look

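Of 66 groups of 4 values examined (22 probe sets and 11 marker list means in each group), 1 held a sample far from the others, and chance alone gives about 5% of such groups. On the Alcam probe set 1437467_at, inflamed sample 1 stood at 8.05 on the log2 scale while the nearest inflamed sample was at 3.61, a gap of 0.946 of the group's whole range. On the brightest Alcam probe set the same sample was at 6.41, within the range of the other inflamed samples, so the probe sets of this gene disagree about it. The cause was not tested.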

How the results depend on the processing

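Under the other settings, 122 values of single members kept their direction and their side of the threshold, 6 lost the call, 1 gained it and 1 turned its sign. The sign turned for Alcam, whose change lay between -0.0557 (without pair 4) and 0.306 when each pair was left out. Without the intensity trend, 94 genes were higher and 47 lower (424 and 328 as reported), 1 member higher and 0 lower, and 1 list gene higher and 0 lower. Median centring gave 719 higher and 227 lower genes, so that 76% of calls were higher against 56.4% as reported, and 2 list genes lower; it moved the median change of all genes to 0.22, against -0.09, and turned no member's direction. The stricter filter tested 4 members, with 1 higher and 0 lower, and the mean of probe sets left 0 members lower. Leaving out each pair gave 208 to 306 genes higher and 126 to 198 lower with fewer samples, 0 to 1 members lower, 4 to 5 list genes higher and 1 to 3 lower; Cd99l2 lost its call without pair 1, 2 or 3. With no replicate block, 384 genes were higher and 301 lower, and the members' calls were 2 higher and 1 lower. The further probe sets of members, their fit without a filter and the floored Sele value were added after seeing the data. The cause of these differences was not tested. Untreated levels of Selp, Sele and the Vcam1 probe set 1448162_at lie near background, so the size of their changes depends on how low signals are treated.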
